A study of Mus musculus with 18 samples.

Results

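The subject is the response to fibroblast growth factor 2 (FGF2) of synovial fibroblasts that also received osteopontin (OPN), measured as mRNA in 6 of the 18 RNA sequencing libraries of the study. Synovial fibroblasts, the connective tissue cells of the joint membrane, were sorted from paws of wild-type (WT) mice without arthritis, called naive. For 3 days they were cultured with 50 ng/mL OPN alone (3 libraries) or with 50 ng/mL OPN plus 10 ng/mL FGF2 (3 libraries), so that OPN was present on both sides of the comparison and FGF2 on 1. The counts cover 32285 genes, of which 15072 passed the filter on low counts and form the set described. Another 6 naive libraries, 3 unstimulated and 3 with 10 ng/mL FGF2 alone, gave the FGF2 response without OPN from cells that enter neither side of the main comparison. The labels give 3 days for the cells with FGF2 alone and no culture time for the unstimulated cells. Where unstimulated cells are the comparator, a difference in culture time therefore cannot be told apart from the treatment. The other 6 libraries, from cells of mice with serum transfer-induced arthritis (STIA) with and without OPN, entered only the estimate of the spread. The age and sex of the animals, the number of animals behind a library and whether replicates were separate cultures are not stated in the labels used here, so p-values measure the spread between libraries, which may be technical.

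FGF2 binds FGF receptors, tyrosine kinases that act with heparan sulphate proteoglycans and signal through the Ras, MEK and ERK kinases. ERK activates ETS and AP-1 transcription factors and also induces its own brakes, the Sprouty and Spred proteins and the dual-specificity phosphatases. In connective tissue FGF2 is known as a growth factor that opposes the contractile, matrix-producing state. Osteopontin, the product of Spp1, is a secreted phosphoprotein of bone and inflamed tissue that binds CD44 and integrins such as the alpha-v beta-3 pair.

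Library totals ran from 30759870 to 40357342 counts with OPN and from 27527043 to 36336001 with FGF2 plus OPN, so that 3 counts, taken as the detection floor, equal 0.0743 to 0.109 CPM (counts scaled to 1000000 per library) in these libraries. The 10 most counted genes took 13.1% to 14.4% of counts with OPN and 8.21% to 9.19% with FGF2 plus OPN. Fibroblast genes were present in all 6 libraries: the 16 pan-fibroblast genes summed to 54017 to 61711 CPM with OPN and 35688 to 40028 CPM with FGF2 plus OPN, on plain totals. Col1a1 and Col1a2, the most counted of them with OPN, fell from means of 26330 and 16370 CPM to 8620 and 7409 CPM. By gene, 9 of the 16 were higher and 4 lower at an adjusted p below 0.05 in edgeR's quasi-likelihood test, with a median log2 fold change of 0.42. The 14 macrophage markers summed to 17.6 to 21.5 and 23.1 to 24.7 CPM, with C1qa at 0 in all 6 libraries. The 12 neutrophil and lymphocyte markers summed to at most 1.46 and 1.86 CPM, with 6 of them at 0 in all 6 libraries. Endothelial markers (10 genes) summed to 15.6 to 20.2 and 14.0 to 15.5 CPM, and the 9 pericyte and smooth muscle markers to 262 to 313 and 289 to 322 CPM. Schwann cell markers (8 genes) summed to 41.4 to 44.8 and 57.2 to 71.2 CPM, and the 9 skeletal muscle markers to 17.9 to 22 and 9.84 to 11 CPM. The 6 keratinocyte markers summed to 2.54 to 3.42 CPM and the 5 erythroid markers to at most 0.254 CPM over the 6 libraries. The part of such cells in the gene changes below was not tested, and in bulk RNA fewer cells of a type and less RNA per cell cannot be told apart.

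Adding FGF2 to OPN changed 8522 of 15072 tested genes (56.5%) at an adjusted p below 0.05 in edgeR's quasi-likelihood test, of which 4079 (27.1%) were higher and 4443 (29.5%) lower. Counts of list members called in the sections below are to be read beside these shares. Most changes were small: 1985 genes (13.2%) were called and at least 2-fold different, 1128 higher (7.48%) and 857 lower (5.69%), and the median log2 fold change over all tested genes was -0.01. At least 16-fold differences were found for 42 higher and 27 lower genes. In 9067 genes (60.2%) the 3 libraries of one group lay wholly above the 3 of the other. The even split rests on the scaling: with plain library totals in place of TMM factors 5433 genes were higher and 3060 lower, and the median moved to 0.12, so changes of that size are read relative to it.

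**Figure D1:**
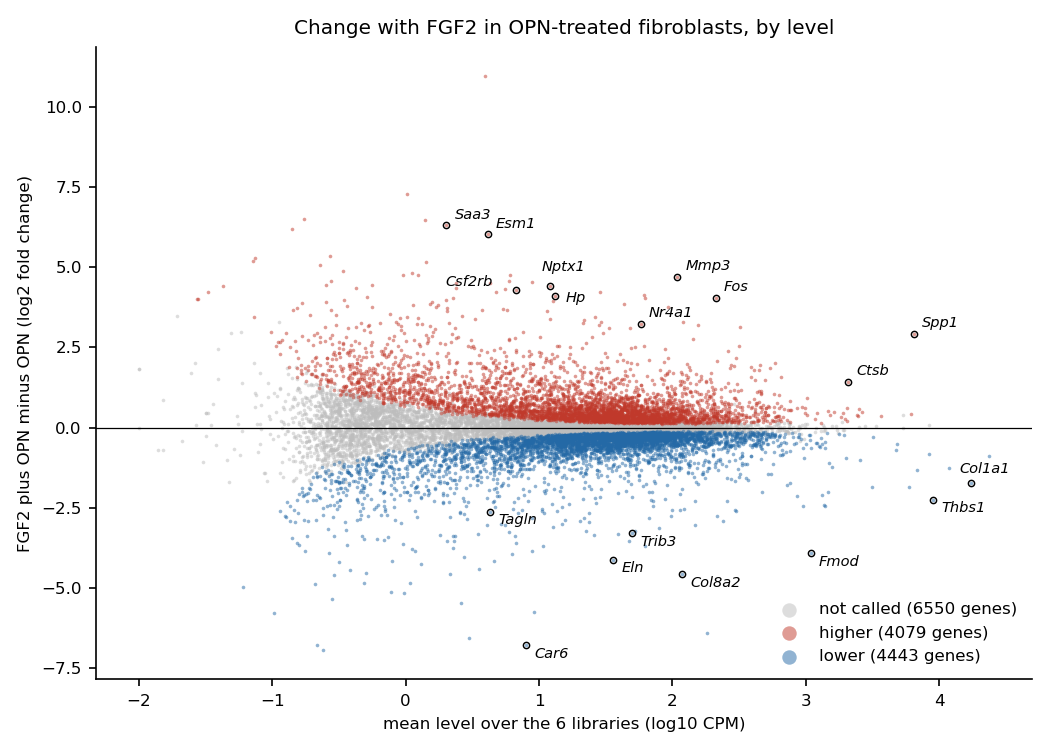
Each point is 1 of 15072 tested genes; the x axis is the mean level over the 6 libraries (log10 CPM) and the y axis the log2 fold change of FGF2 plus OPN over OPN. Red genes (4079) were higher and blue genes (4443) lower at an adjusted p below 0.05, with named examples such as Mmp3 at 4.71 and Fmod at -3.92.

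The largest rises among called genes with a mean of at least 5 CPM and groups that did not overlap joined secreted proteins, receptors and early response factors. Mmp3, which encodes stromelysin-1, a matrix-degrading protease (chr9:7445822-7455975, plus strand, GRCm38), counted 7.89, 6.41 and 9.87 CPM in the 3 OPN libraries and 185, 186 and 256 CPM in the 3 libraries with FGF2 plus OPN (log2 fold change 4.71 ± 0.34, adjusted p = 9.57e-08). The highest OPN library lay far below the lowest with FGF2. Nptx1, a pentraxin best known from neurons (chr11:119538719-119547753), rose from 0.879, 1.52 and 0.736 CPM to 26.2, 20.3 and 22.5 CPM (log2 fold change 4.43 ± 0.21, adjusted p = 1.11e-11). For Csf2rb, the shared beta chain of the receptors for GM-CSF, IL-3 and IL-5 (chr15:78325752-78353847), the OPN libraries held 0.628, 0.309 and 1.10 CPM against 12.9, 14.2 and 11.5 CPM (log2 fold change 4.29 ± 0.30, adjusted p = 1.38e-10). Both genes were low in every OPN library. Separation of the groups was a condition of this choice, so it is no added support. Ace, the angiotensin-converting enzyme, was at 5.22, 10.4 and 5.42 CPM with OPN and at 118, 123 and 112 CPM with FGF2 added (log2 fold change 4.05 ± 0.42, adjusted p = 3.10e-06), and Agtr2, a receptor of angiotensin II, rose by 4.55 on the log2 scale. The 15 largest rises also held Cyp2f2 (4.76), Galnt15 (4.58), Slc14a1 (4.33), Tspan11 (4.23), Serpina3n (4.13), Hp (4.10), Fos (4.05), Chl1 (3.96), Itih5 (3.86) and Fosb (3.75), given as log2 fold changes; without the third OPN library Chl1 was at 4.64 and Agtr2 at 5.14. Below the 5 CPM limit of that choice, Tmem163, which encodes a zinc transporter of vesicles, had no count in any OPN library and 7.87 ± 0.334 CPM (SD, n = 3) with FGF2 added, at least 78.4-fold higher when set against 3 counts per library, and was picked after its values were seen. Csf2rb shares sequence with its neighbour Csf2rb2, so reads may be split between the 2 genes. Of the most counted genes changed at least 2-fold, Spp1 and Ctsb rose. Ctsb, the lysosomal protease cathepsin B, went from 1151, 1064 and 1135 CPM to 2929, 2934 and 3169.7 CPM (log2 fold change 1.43 ± 0.11, adjusted p = 1.28e-09).

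The largest falls included matrix proteins and secreted factors. Fmod, the collagen-binding proteoglycan fibromodulin (chr1:134037254-134048277), fell from 1981, 1748 and 2407 CPM in the OPN libraries to 106, 115 and 184 CPM with FGF2 (log2 fold change -3.92 ± 0.19, adjusted p = 1.26e-10). Eln, which encodes elastin (chr5:134702593-134747323), fell from 59.8, 48.5 and 94.8 CPM to 3.16, 3.52 and 4.99 CPM (log2 fold change -4.13 ± 0.26, adjusted p = 3.40e-09). Col8a2, a chain of the short-chain collagen VIII (chr4:126286793-126314330), fell from 233, 189 and 256 CPM to 7.53, 10.3 and 10.8 CPM (log2 fold change -4.57 ± 0.17, adjusted p = 2.85e-12). In each of these 3 genes every library with FGF2 lay below every OPN library, which was a condition for the choice of the largest falls. The OPN libraries themselves differed, most for Eln. Cdsn, corneodesmosin, an adhesion protein of skin, went from 343, 212 and 522 CPM to 3.04, 2.69 and 6.89 CPM (log2 fold change -6.43 ± 0.38, adjusted p = 1.26e-08). Car6, a secreted carbonic anhydrase, was at 16.7, 12.3 and 18.3 CPM with OPN and near the detection floor with FGF2, at 0.151, 0.0665 and 0.190 CPM. Igfbp2, an insulin-like growth factor binding protein, dropped from 88.6, 70.2 and 104 CPM to 6.68, 6.38 and 9.41 CPM (log2 fold change -3.55 ± 0.17, adjusted p = 2.59e-11). The other large falls were Atp12a (-5.75), Scg2 (-3.95), Ppef1 (-3.84), Nell2 (-3.71), Megf6 (-3.69), Slc7a3 (-3.61), Cilp2 (-3.38), Cpxm2 (-3.34) and C1qtnf3 (-3.32). Among the most counted genes, Thbs1 (-2.26), Col5a1 (-1.85), Col5a2 (-1.85), Col1a1 (-1.74), Sparc (-1.33), Col1a2 (-1.27), Fbn1 (-1.24) and Comp (-1.03) fell, all of them matrix genes.

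The upstream sequence of 3 genes with large rises is shown because early response and metalloproteinase genes of this kind are classical targets of AP-1 and of factors that bind the cyclic AMP response element. The 250 bases before the start site are from RefSeq (build GRCm38.p6), read 5′ to 3′ on the gene's strand. Capitals mark the AP-1 motif TGANTCA in Mmp3 (chr9:7445572-7445821, plus strand) and Mmp10 (chr9:7502092-7502341, plus strand) and the half-site TGACGT in Fos (chr12:85473640-85473889, plus strand), searched on both strands.
Mmp3: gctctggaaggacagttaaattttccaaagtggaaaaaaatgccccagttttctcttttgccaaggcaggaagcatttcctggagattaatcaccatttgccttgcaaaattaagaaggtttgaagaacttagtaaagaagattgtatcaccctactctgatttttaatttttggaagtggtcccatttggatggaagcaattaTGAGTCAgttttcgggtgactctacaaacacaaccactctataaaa
Mmp10: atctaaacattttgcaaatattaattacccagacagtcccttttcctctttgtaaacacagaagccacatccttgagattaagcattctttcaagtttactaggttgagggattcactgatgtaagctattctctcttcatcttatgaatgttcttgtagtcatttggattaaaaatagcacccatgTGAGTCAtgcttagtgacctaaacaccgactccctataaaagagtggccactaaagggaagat
Fos: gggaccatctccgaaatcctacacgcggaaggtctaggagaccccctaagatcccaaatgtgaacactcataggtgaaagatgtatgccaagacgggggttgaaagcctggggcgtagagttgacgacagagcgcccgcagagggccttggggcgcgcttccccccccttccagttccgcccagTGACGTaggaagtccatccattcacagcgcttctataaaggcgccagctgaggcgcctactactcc
Mmp3 held TGAGTCA 46 to 40 bases before its start and Mmp10 the same 7 letters 63 to 57 bases before its own, while Fos held TGACGT 66 to 61 bases before. Over 27025 promoters of the table, 1 per gene, 6.87% held TGANTCA and 6.56% held TGACGT in the same window, so each match is common by itself. Other searched promoters of genes that rose held neither motif in this window, those of Nr4a1 and Zfp36 among them. The 3 shown are thus examples with a match and do not stand for the rises as a whole. A match describes the letters and was not tested as a binding site.

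ERK feedback genes rose as a group, though not all of them: 10 of 17 measured members rose and 1 fell, with a median log2 fold change of 0.48 beside -0.01 over all tested genes. Errfi1, an inhibitor of the EGF receptor, counted 31.0, 30.2 and 29.4 CPM with OPN and 255, 276 and 309 CPM with FGF2 added (log2 fold change 3.21 ± 0.09, adjusted p = 1.89e-17). Dusp6, the ERK-specific phosphatase, rose from 15.2, 17.5 and 9.70 CPM to 50.9, 48.0 and 57.2 CPM (log2 fold change 1.87 ± 0.16, adjusted p = 6.15e-08), and Spry2, a Sprouty inhibitor of Ras signalling, from 14.2, 15.5 and 13.7 CPM to 41.2, 42.4 and 46.7 CPM (log2 fold change 1.58 ± 0.07, adjusted p = 3.79e-14). For all 3 the groups were apart. Other members that rose were Dusp5 (1.39), Lrig1 (1.33), Dusp4 (0.98), Spred2 (0.69), Spred3 (0.69) and Spred1 (0.36) and Spry4, whose call was lost without the first FGF2 plus OPN library. Spry1 moved the other way (-1.03), and Dusp7 (0.11), Dusp9 (-0.06), Il17rd (0.19), Rasa1 (0.06), Lrig3 (0.07) and Flrt3 (-0.27) were not called.

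Of the ETS and AP-1 transcription factors 13 of 19 measured members rose and 2 fell. Fos, a core AP-1 subunit (chr12:85473890-85477273), counted 25.9, 23.5 and 22.5 CPM with OPN and 358, 409.8 and 425 CPM with FGF2 plus OPN (log2 fold change 4.05 ± 0.10, adjusted p = 2.49e-17). Its partner genes Fosb (3.75), Junb (1.85), Jun (1.51) and Jund (0.69) rose as well, by log2 values. Among ETS factors, Etv1 rose from 6.4, 6.82 and 5.32 CPM to 44.3, 40.9 and 31.6 CPM (log2 fold change 2.65 ± 0.19, adjusted p = 4.99e-09), with smaller rises of Etv5 (0.88), Etv4 (0.84), Ets2 (0.61) and Elk3 (0.58), while Ets1 (0.04), Elk1 (0.11) and Elk4 (-0.09) were not called. Immediate early genes, which are transcribed within minutes of a stimulus and were here read after 3 days of culture, followed: 14 of 21 measured members rose and 2 fell, 9 of them at least 2-fold, and the median was 0.96. Egr1, a zinc finger factor, was at 87.3, 86.0 and 78.9 CPM and 429.6, 459.8 and 436 CPM (log2 fold change 2.39 ± 0.06, adjusted p = 1.45e-18), Nr4a1, an orphan nuclear receptor, at 10.5, 11.2 and 11.5 CPM and 92.3, 117 and 105 CPM (log2 fold change 3.24 ± 0.16, adjusted p = 1.90e-10), and Zfp36, which promotes decay of cytokine mRNAs, at 35.3, 37.5 and 36.4 CPM and 231, 261 and 250.4 CPM (log2 fold change 2.77 ± 0.07, adjusted p = 1.45e-18). In each, the 3 libraries of a group lay close together and the groups were far apart. Unstimulated naive cells held 326, 306 and 315 CPM of Fos and 426, 403 and 399 CPM of Egr1, well above the OPN libraries. For the immediate early list, the median log2 level relative to OPN was 0.69 to 0.79 in unstimulated libraries. It was 0.67 to 1.08 with FGF2 plus OPN. Without OPN, FGF2 raised 6 and lowered 9 of the 21 immediate early genes (median 0.04). The Hippo and serum response targets Ccn2 (-0.82) and Ccn1 (-0.45) fell instead. The call of Ccn1 was lost with library totals and in 4 of the fits that left out 1 library.

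**Figure D2:**
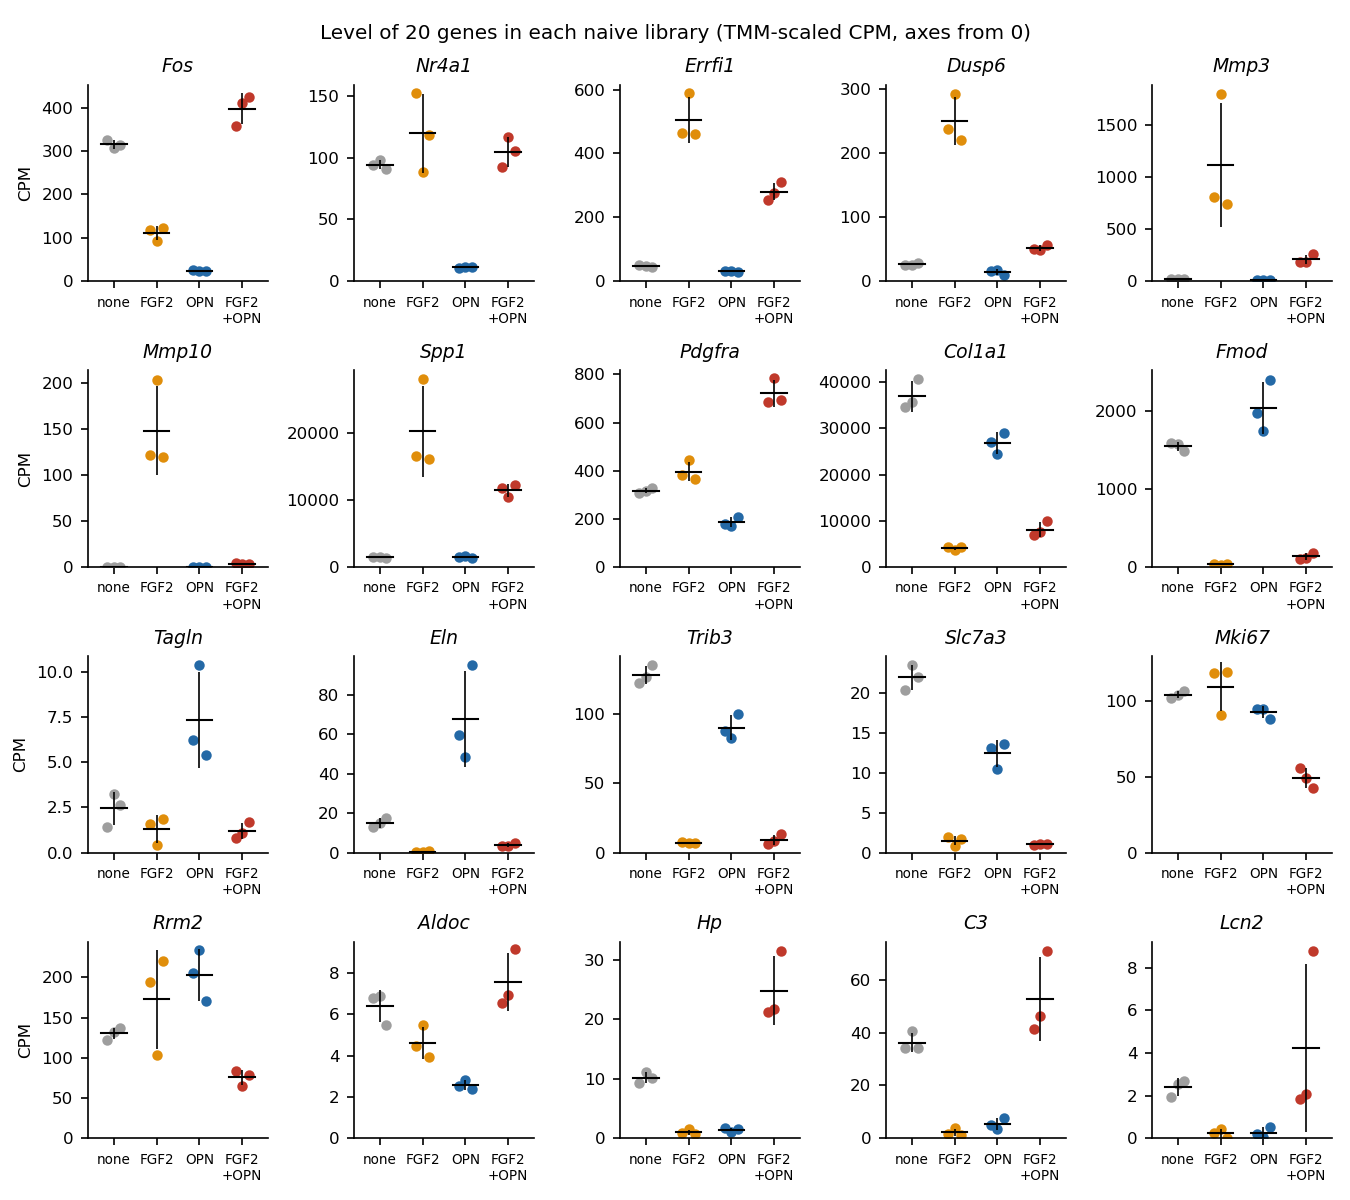
CPM of 20 genes in the 12 naive libraries, grouped as none (unstimulated), FGF2, OPN and FGF2 plus OPN; points are libraries, horizontal bars group means and vertical bars ± 1 SD, n = 3. The FGF2 plus OPN libraries lie above the OPN libraries for genes such as Fos (358 to 425 against 22.5 to 25.9 CPM) and below them for genes such as Trib3 and Fmod.

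The FGF system itself changed in both directions. Of its ligands, receptors and coreceptors, 9 of 22 measured members rose and 8 fell, with a median of -0.05 that became 0.08 with library totals. Among ligands Fgf2 rose from 122, 174 and 88.5 CPM to 276, 267 and 226 CPM (log2 fold change 0.99 ± 0.18, adjusted p = 3.11e-04), and Fgf10 (1.84) and Fgf18 (1.09) rose too, while Fgf7, a ligand for epithelial cells, fell (-0.45). Receptor Fgfr1 rose by 0.61, whereas Fgfr2 fell from 145, 123 and 178 CPM to 55.9, 67.7 and 61.0 CPM (log2 fold change -1.27 ± 0.10, adjusted p = 1.07e-09). The OPN libraries lay above those with FGF2 for Fgfr2 and below them for Fgfr1 and Fgf2. Among heparan sulphate coreceptors Sdc4 (0.92), Sdc1 (0.76) and Sdc3 (0.59) rose and Sdc2 (-0.55) and Gpc6 (-0.34) fell.

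Spp1, the gene of osteopontin (chr5:104435118-104441050), rose when FGF2 was added to osteopontin protein: 1513, 1613 and 1359.7 CPM with OPN and 11734, 10355 and 12168 CPM with FGF2 plus OPN (log2 fold change 2.93 ± 0.16, adjusted p = 2.78e-11). Unstimulated cells held 1423, 1470.0 and 1373 CPM, about the level with OPN alone. Of the 12 measured genes of osteopontin, its integrins and CD44, 4 rose and 2 fell, with 50% called beside 56.5% of all tested genes. Without OPN, FGF2 raised 8 and lowered 3 of these 12, with a median log2 fold change of 1.02 against 0.085 with OPN. The interaction was lower with OPN in 8 and higher in 3. Itgb3, the beta-3 integrin chain, rose from 23.9, 27.2 and 20.5 CPM to 64.2, 56.8 and 64.8 CPM (log2 fold change 1.37 ± 0.08, adjusted p = 1.96e-12), and Itgb8 (1.33) and Itga5 (0.38) rose. Itgav, its alpha-v partner, fell (-0.70), as did Itgb1 (-0.32). Cd44 was not called, with 256, 299.6 and 219 CPM and 314, 297 and 275 CPM in overlapping groups.

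Other growth factor families shifted by member. In the PDGF and VEGF families 14 of 22 measured members rose and 4 fell. Pdgfra, a receptor that marks fibroblasts, rose from 179, 171 and 208 CPM to 685, 786 and 694 CPM (log2 fold change 1.96 ± 0.08, adjusted p = 2.10e-14), while its sister receptor Pdgfrb (-0.76) fell. Esm1, an endothelial proteoglycan known as a VEGF target, rose from 0.0753, 0.232 and 0.0335 CPM to 9.69, 7.05 and 7.58 CPM (log2 fold change 6.04 ± 0.33, adjusted p = 1.80e-12), and Vegfa from 126, 120.4 and 128 CPM to 271, 285 and 278 CPM (log2 fold change 1.16 ± 0.05, adjusted p = 9.41e-14). Both were separate between the groups, but Esm1 was near the detection floor with OPN, and without the second OPN library its log2 fold change was 7.05. Angiopoietin-2 and hepatocyte growth factor also rose, with Angpt2 (2.41) and Hgf (1.68), and the VEGF receptor gene Kdr fell (-1.20). In the EGF family 5 of 12 rose and 4 fell, with Btc (0.84) and Ereg (0.56) among the rises and Nrg1 (-1.22) among the falls.

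Among BMP and GDF genes 12 of 27 measured members rose and 9 fell: Bmp2 (2.12), Grem1 (1.92) and Gdf10 (1.80) were higher, and Chrdl1 (-2.68), Bmp4 (-2.47), Nog (-2.35) and Bmp6 (-1.79) were lower. Grem1, a secreted BMP antagonist, rose from 122, 137 and 106 CPM to 500.2, 477 and 403 CPM (log2 fold change 1.92 ± 0.09, adjusted p = 7.65e-14), and Bmp4 fell from 27.7, 19.1 and 28.3 CPM to 4.29, 3.46 and 5.81 CPM (log2 fold change -2.47 ± 0.17, adjusted p = 1.15e-10). The direct BMP target genes Id1 (0.78), Id2 (0.66) and Id3 (0.38) were higher. In the TGF-beta and activin list 11 of 21 rose and 8 fell. Tgfbi, a matrix protein named for its induction by TGF-beta, rose from 65.0, 49.5 and 83.5 CPM to 502, 577 and 651 CPM (log2 fold change 3.13 ± 0.19, adjusted p = 4.52e-09). Wnt genes divided into 12 higher and 14 lower of 36: the secreted antagonists Sfrp4 (2.48) and Frzb (1.34) rose and Sfrp2 fell (-2.83), as did the R-spondins Rspo1 (-1.80), Rspo3 (-1.68) and Rspo2 (-0.81) and their receptor Lgr5 (-2.23). Of 12 Notch pathway genes 6 fell and 1 rose, the falls including Hey1 (-1.59), Heyl (-1.10) and Jag1 (-1.01).

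Structural matrix genes were more often lower than higher. Of 38 collagen chains 16 fell (42.1%), 7 rose (18.4%) and 15 were not called, beside 29.5% lower and 27.1% higher over all tested genes. With 60.5% of the chains called, beside 56.5% of all tested genes, the list differed from that background mainly in direction. Col1a1, the main chain of type I collagen (chr11:94936224-94953042), counted 27114, 24421 and 29046 CPM with OPN and 6894, 7469.8 and 9839.5 CPM with FGF2 (log2 fold change -1.74 ± 0.11, adjusted p = 2.04e-11), and the fibrillar chains Col1a2 (-1.27), Col5a1 (-1.85) and Col5a2 (-1.85) and the fibril-associated Col12a1 (-2.43) fell with it. The fibrillar chain Col3a1 was not called and had a mean of 4634 CPM with OPN and 6104 CPM with FGF2 added (log2 fold change 0.40 ± 0.20, adjusted p = 0.101); it was picked after its values were seen. Rises were found in Col23a1 (3.40), Col10a1 (2.10), Col4a6 (1.61) and Col24a1 (1.47). Among collagen-processing enzymes 9 of 22 fell (40.9%) and 7 rose (31.8%), the cross-linking oxidases Loxl2 (-1.76), Loxl4 (-1.04) and Lox (-0.84) and the chaperone Serpinh1 (-0.95) being lower. Of 35 proteoglycans and matrix glycoproteins 19 fell and 10 rose, with a median of -0.71. Thbs1, thrombospondin-1, fell from 14250.1, 15205 and 15457 CPM to 2989, 2756 and 3623 CPM (log2 fold change -2.26 ± 0.25, adjusted p = 2.85e-06), and Cilp2 (-3.38), Cilp (-2.91), Tnn (-2.83) and Thbs4 (-2.44) fell further, whereas Tnxb (2.23), Spon2 (2.09), Mgp (1.86) and Dcn (1.79) rose. All 15 elastic fibre genes were called, 9 lower and 6 higher: Eln (-4.13), Mfap4 (-1.73), Fbn2 (-1.70) and Fbln5 (-1.58) against Mfap2 (2.17), Fbln1 (1.88) and Emilin2 (1.42). The call of Ltbp2 in that list was lost with library totals, without the first or the second FGF2 plus OPN library, in the 1.5-fold test and with the replicate block over the compared libraries alone. Basement membrane genes gave 7 falls (46.7%), led by Lama1 (-3.05) and Lama2 (-0.99), and 4 rises (26.7%) among 15.

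Genes that break down matrix were mixed, and the largest changes were rises. Of 30 metalloproteinases and inhibitors 14 rose and 7 fell. Next to Mmp3, its chromosome 9 neighbour Mmp10, stromelysin-2, rose from 0.276, 0.129 and 0.301 CPM to 3.72, 2.86 and 2.91 CPM (log2 fold change 3.77 ± 0.43, adjusted p = 1.57e-06), and Adam8 (2.46) and Adamts15 (2.23) rose. Timp3, a matrix-bound inhibitor of metalloproteinases, fell from 1583, 1432 and 1791 CPM to 263, 272 and 346 CPM (log2 fold change -2.45 ± 0.11, adjusted p = 5.31e-13), and the aggrecanase gene Adamts5 fell by 1.58 on the log2 scale, with Adam12 (-1.33) and Adamts12 (-0.99). Plau, urokinase, rose (1.30) while its receptor gene Plaur fell (-0.53). In the hyaluronan list 7 of 16 rose and 3 fell, the synthases Has1 (2.25) and Has2 (0.69) and the binding protein Tnfaip6 (1.64) rising and the hyaluronan-degrading Cemip (-2.02) falling.

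Contractile genes were lower: 18 of 27 fell, 9 of them at least 2-fold, and 1 rose (Tagln2, 0.41), with a median of -0.57. Acta2, smooth muscle alpha-actin and the usual marker of myofibroblasts, fell from 1258, 1203 and 1059 CPM to 291, 258 and 509 CPM (log2 fold change -1.73 ± 0.29, adjusted p = 2.24e-04). Tagln, transgelin, fell from 6.23, 10.4 and 5.39 CPM to 0.804, 1.10 and 1.71 CPM (log2 fold change -2.63 ± 0.39, adjusted p = 3.51e-05). The groups were apart for both, with the third FGF2 plus OPN library the highest of its group. Without that library Acta2 was at -2.10 and Tagln at -2.97 on the log2 scale. Of the other integrins 7 of 11 rose, led by Itgb2 (3.27), Itgb7 (1.70), Itga6 (1.49) and Itga2 (1.31), and the collagen-binding Itga11 (-2.57) and Itga1 (-1.57) fell.

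**Figure D3:**
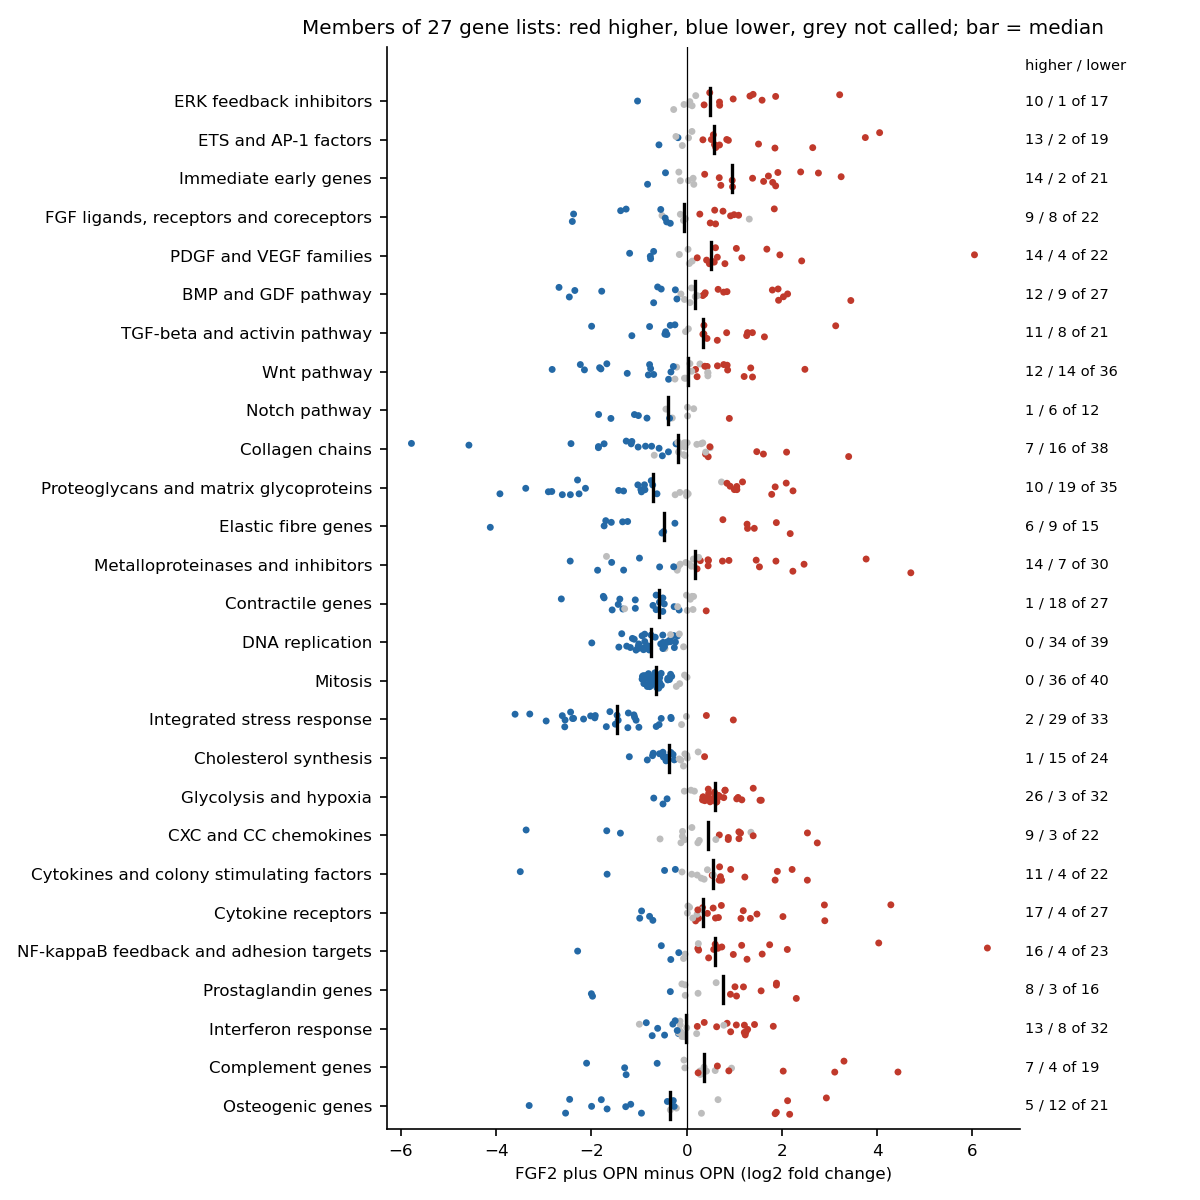
Log2 fold change of FGF2 plus OPN over OPN for the measured members of 27 gene lists (1 point per gene, 1 row per list), with red higher, blue lower, grey not called and a black bar at the list's median. No point of the DNA replication and mitosis rows is red, and 29 of 33 points of the integrated stress response row are blue.

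Genes of the cell division cycle fell with FGF2 in the presence of OPN. Of 39 DNA replication genes 34 fell and 0 rose, 11 falling at least 2-fold, with a median of -0.75. Of 40 mitosis genes 36 fell and 0 rose, with a median of -0.65. Ccne2, the cyclin E2 of S-phase entry, counted 18.6, 17.7 and 16.2 CPM with OPN and 4.72, 4.02 and 4.39 CPM with FGF2 plus OPN (log2 fold change -1.99 ± 0.16, adjusted p = 2.89e-09). Rrm2, the regulated subunit of ribonucleotide reductase, went from 206, 234 and 170.0 CPM to 83.5, 65.1 and 78.4 CPM (log2 fold change -1.43 ± 0.22, adjusted p = 8.73e-05). Mki67, the proliferation marker Ki-67, fell from 94.6, 94.7 and 87.8 CPM to 55.9, 49.0 and 42.3 CPM (log2 fold change -0.91 ± 0.09, adjusted p = 4.41e-08). In all 3 genes each library with FGF2 lay below each OPN library. Cdc6, a licensing factor of replication origins, and Mcm3, a helicase subunit, fell by similar amounts (-1.36 and -1.26), as did the mitotic genes Top2a (-0.90), Cenpe (-0.93) and Ect2 (-0.94). Among G1 regulators Ccnd2 (-1.44), Cdk6 (-1.33), Rbl1 (-0.75) and Myc (-0.54) fell and the inhibitors Cdkn1c (1.22) and Cdkn2c (0.37) rose, 7 falls and 4 rises among 19 genes. Of 20 p53 targets 7 fell (35%, beside 29.5% of all tested genes) and 1 rose. With 40% called, beside 56.5% of all tested genes, this list changed less than the whole.

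The cell cycle lists moved in another direction without OPN. Without OPN, FGF2 raised 18 and lowered 1 of the 39 replication genes and raised 24 and lowered 0 of the 40 mitosis genes, with medians of 0.29 and 0.28. The difference between both responses, tested as an interaction, was called lower with OPN in 37 of 39 and 40 of 40 genes, beside 27.2% of all tested genes. Mki67 held 102, 104 and 106 CPM in unstimulated cells and 118, 90.4 and 119 CPM with FGF2 alone, all above the 55.9, 49.0 and 42.3 CPM with both factors (interaction -0.98 ± 0.13, adjusted p = 1.99e-06). The second library with FGF2 alone was the lowest of its group for Mki67.

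Of the lists with 10 or more measured genes, the integrated stress response had the median farthest from 0. This programme, run by the factor ATF4, supplies amino acids and their transporters when translation initiation is limited. Of 33 genes 29 fell and 2 rose, 24 of them falling at least 2-fold, and the median was -1.46. Trib3, a pseudokinase target of ATF4 (chr2:152337422-152344032), counted 87.4, 82.4 and 99.6 CPM with OPN and 6.13, 8.25 and 13.3 CPM with FGF2 (log2 fold change -3.30 ± 0.18, adjusted p = 9.67e-10). Chac1, a glutathione-degrading enzyme (chr2:119351229-119354381), went from 43.3, 41.1 and 41.4 CPM to 4.37, 3.32 and 8.62 CPM (log2 fold change -2.95 ± 0.23, adjusted p = 5.32e-08), and Slc7a3, a transporter of cationic amino acids, from 13.2, 10.5 and 13.7 CPM to 0.904, 1.10 and 1.07 CPM (log2 fold change -3.61 ± 0.18, adjusted p = 3.48e-13). The groups were far apart in all 3 genes. Cth, an enzyme of cysteine synthesis, fell by 2.61 on the log2 scale. Cebpb was the clear exception with a rise of 0.98, and Ddit4 rose by 0.41, a call that was lost without the third FGF2 plus OPN library. Without OPN, FGF2 lowered 29 and raised 3 of the same genes (median -1.74). Phgdh, the first enzyme of serine synthesis, differed between both settings: it fell by 1.09 with OPN and rose by 1.69 without (interaction -2.79 ± 0.17, adjusted p = 1.31e-10).

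Promoters of stress response genes are shown because their composite element for C/EBP and ATF4 is the textbook site of this programme. Of the 33 genes 28 had an entry among the RefSeq promoters, and 7 of these 28 (25%) held TGATGNAA on either strand within 250 bases before the start, beside 3.53% of all 27025 promoters. The 7 were Asns, Chac1, Fgf21, Nupr1, Pck2, Pycr1 and Slc7a11. Printed below, with the matches in capitals, are Chac1 (chr2:119350992-119351241, plus strand), Asns, the asparagine synthetase gene (chr6:7693210-7693459, minus strand), and Slc7a11, the cystine transporter gene (chr3:50443614-50443863, minus strand).
Chac1: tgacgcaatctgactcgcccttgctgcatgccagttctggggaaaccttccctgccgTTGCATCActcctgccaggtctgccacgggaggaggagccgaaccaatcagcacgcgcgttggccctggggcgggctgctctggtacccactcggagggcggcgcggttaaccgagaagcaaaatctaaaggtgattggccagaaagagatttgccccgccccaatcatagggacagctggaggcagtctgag
Asns: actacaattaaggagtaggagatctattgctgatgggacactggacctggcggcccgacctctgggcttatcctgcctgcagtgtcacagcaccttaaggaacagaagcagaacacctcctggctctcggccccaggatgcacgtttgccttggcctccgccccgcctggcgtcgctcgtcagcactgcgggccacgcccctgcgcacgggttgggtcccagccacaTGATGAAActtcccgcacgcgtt
Slc7a11: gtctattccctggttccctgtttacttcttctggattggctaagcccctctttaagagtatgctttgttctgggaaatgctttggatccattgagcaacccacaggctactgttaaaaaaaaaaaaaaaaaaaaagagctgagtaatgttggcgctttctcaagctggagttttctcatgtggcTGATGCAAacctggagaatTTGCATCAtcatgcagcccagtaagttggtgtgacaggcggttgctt
Slc7a11 held 2 matches, 66 to 59 and 47 to 40 bases before the start, Asns 1 at 23 to 16 and Chac1 1 at 193 to 186. Asns fell by 1.92 and Slc7a11 by 2.40 on the log2 scale; both were picked for the motif after their values were seen. The motif count is a description of the letters, and genes of the list without a match fell as well, Trib3 among them. The list gathers genes of a programme whose textbook site this is, so its larger share says nothing about the response to FGF2.

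Glycolysis and hypoxia genes were higher: 26 of 32 measured members rose and 3 fell, with a median of 0.59, and 6 rose at least 2-fold. Aldoc, aldolase C, rose from 2.54, 2.83 and 2.38 CPM to 6.53, 6.95 and 9.16 CPM (log2 fold change 1.54 ± 0.16, adjusted p = 4.19e-08), and Ankrd37 (1.57), Car9 (1.4) and Vegfa (1.16), all known hypoxia targets, rose. Other hypoxia targets, Adm (-0.69) and Ndrg1 (-0.50), fell. Without OPN, FGF2 raised 9 and lowered 17 of the 32 genes. Cholesterol synthesis genes were lower by small amounts, 15 of 24 falling and 1 rising with a median of -0.37. Sc5d, a late enzyme of the pathway, fell from 109, 118 and 108 CPM to 47.4, 46.3 and 51.5 CPM (log2 fold change -1.21 ± 0.07, adjusted p = 5.20e-12), and Cyp51 (-0.72) and Msmo1 (-0.70) fell. Fatty acid genes gave 4 rises (25%) and 6 falls (37.5%) among 16, beside 27.1% higher and 29.5% lower over all tested genes.

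Among inflammatory genes more were higher than lower in the lists of NF-kappaB targets, chemokines, cytokines and cytokine receptors. In the list of NF-kappaB feedback and adhesion targets 16 of 23 measured members rose and 4 fell, with a median of 0.60. Lcn2, lipocalin-2, a carrier of bacterial siderophores, rose from 0.201, 0.0773 and 0.535 CPM to 1.86, 2.06 and 8.78 CPM (log2 fold change 4.03 ± 0.73, adjusted p = 2.36e-04), and Saa3, a serum amyloid A, from 0.0251, 0.103 and 0 CPM to 0.553, 0.366 and 11.1 CPM (log2 fold change 6.32 ± 1.45, adjusted p = 0.00225). The third FGF2 plus OPN library was the highest for both, and without it their log2 fold changes were 2.92 and 3.24. They were 4.87 for Lcn2 without the third OPN library and 7.75 for Saa3 without the second, and the call of Saa3 was lost with limma-voom and with only the compared libraries in the fit. Ptx3, a pentraxin of innate immunity, fell (-2.29). The regulators Nfkbiz (2.11), Bcl3 (1.74) and Cebpb (0.98) rose. Of 22 chemokine genes 9 rose (40.9%) and 3 fell (13.6%), with Ccl11 (2.74), Ccl8 (2.54), Cx3cl1 (1.13) and Ackr3 (1.10) against Cxcl14 (-1.39). With 54.5% called, beside 56.5% of all tested genes, the chemokine list was near that background in the share called. Il6, the cytokine interleukin-6, rose from 0.352, 0.464 and 0.301 CPM to 1.08, 2.16 and 2.12 CPM (log2 fold change 2.21 ± 0.34, adjusted p = 9.29e-06), still below the 4.26, 3.97 and 4.79 CPM of unstimulated cells. Cytokines gave 11 rises and 4 falls among 22. Receptors for cytokines gave 17 rises and 4 falls among 27, with Csf2rb (4.29), Il13ra2 (2.02) and Il1rl1 (1.47) among the rises and Csf1r (-0.99), Tnfrsf12a (-0.95), Csf2ra (-0.78) and Lifr (-0.71) among the falls.

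Prostaglandin genes gave 8 rises and 3 falls among 16. The receptor gene Ptgfr rose from 13.3, 12.4 and 15.1 CPM to 65.3, 75.4 and 60.1 CPM (log2 fold change 2.30 ± 0.13, adjusted p = 1.36e-11), Ptger4 (1.89), Ptgir (1.88) and Ptger1 (1.56) rose, and Hpgd, which inactivates prostaglandins, fell (-1.98). Of 19 complement genes 7 rose and 4 fell, with 57.9% called beside 56.5% of all tested genes. C3, the central complement component, rose from 4.97, 3.58 and 7.76 CPM to 41.3, 46.3 and 70.9 CPM (log2 fold change 3.30 ± 0.32, adjusted p = 1.31e-06), while Cfi (-2.10), C2 (-1.30) and Cd59a (-1.27) fell. Every library with FGF2 exceeded every OPN library for C3. The interferon response list was divided, 13 higher and 8 lower of 32: Irf7 (1.28), Isg15 (1.24) and Gbp3 (1.23) rose, and Ifi44 (-0.85), Ifih1 (-0.73) and H2-K1 (-0.61) fell. H2-K1 has close paralogs that can share its reads.

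Lists that describe fibroblast and skeletal identity were divided. Of 21 osteogenic genes 12 fell and 5 rose, with Alpl (-2.54) and Sp7 (-1.28) lower and Enpp1 (2.16), Ank (1.88) and Bmp2 (2.12) higher. Tnfsf11, which encodes RANKL, the inducer of osteoclasts, rose from 6.76, 4.43 and 7.53 CPM to 17.3, 24.0 and 26.2 CPM (log2 fold change 1.86 ± 0.19, adjusted p = 2.07e-07). Tnfrsf11b, the decoy receptor osteoprotegerin that blocks RANKL, fell from 112, 107 and 114 CPM to 35.3, 29.6 and 39.5 CPM (log2 fold change -1.67 ± 0.12, adjusted p = 2.65e-09). No library of one group reached the range of the other for either gene. Chondrogenic genes gave 6 rises, among them Sox5 (2.50) and Sox9 (1.24), and 7 falls, among them Col2a1 (-1.17) and Sox6 (-0.82), of 15. Of 9 tendon and ligament genes 5 fell, Tnmd (-2.30) and Thbs4 (-2.44) among them, and 2 rose. For 11 genes of lining fibroblasts 6 rose, led by Clic5 (2.63), Has1 (2.25) and Htra4 (1.91), and 4 fell. Sublining and universal fibroblast genes gave 10 rises such as Apoe (2.09), Pi16 (1.6) and Fbln1 (1.88) and 9 falls such as Clec3b (-3.78), Cthrc1 (-1.81) and Wnt2 (-1.83) among 23. Single markers of other cells also moved: of 8 measured pericyte and smooth muscle genes 4 rose, Rgs5 (3.26) and Abcc9 (2.01) among them, and 2 fell, Myh11 (-1.34) and Cspg4 (-0.57). Myh11 was at -2.15 without the third FGF2 plus OPN library, and the call of Cspg4 was lost with library totals, in the 1.5-fold test and without the second OPN or the second FGF2 plus OPN library. In the macrophage list Cd14 (1.97) rose, and Lyz2 (-3.03), a lysozyme gene of the macrophage list, fell, while the sums of both lists stood as given above.

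Whether these changes were those FGF2 makes without OPN was asked with the other 6 naive libraries. Across the 15072 genes the log2 fold changes of FGF2 with OPN and without OPN had a Pearson r of 0.47 and a Spearman rho of 0.34, a description over genes that share the fit but no library. Without OPN 8609 genes (57.1%) were called, 4379 higher (29.1%) and 4230 lower (28.1%). Of the 1985 genes at least 2-fold changed with OPN, 1190 (59.9%) were called in the same direction without it, 235 (11.8%) in the opposite direction and 560 (28.2%) were not called. Over all tested genes the median absolute log2 fold change was 0.342 with OPN and 0.357 without. Large changes were more frequent without OPN, where 3000 genes were called and at least 2-fold different, beside the 1985 with OPN. Of these 3000 genes, 1661 (55.4%) were called in the same direction with OPN and 299 (9.97%) in the opposite direction. The interaction test called 7723 genes (51.2%), 3627 with a higher (24.1%) and 4096 with a lower (27.2%) FGF2 effect in the presence of OPN. The second library with FGF2 alone stood apart from the other two of its group, and without it 7902 genes were called for the interaction.

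**Figure D4:**
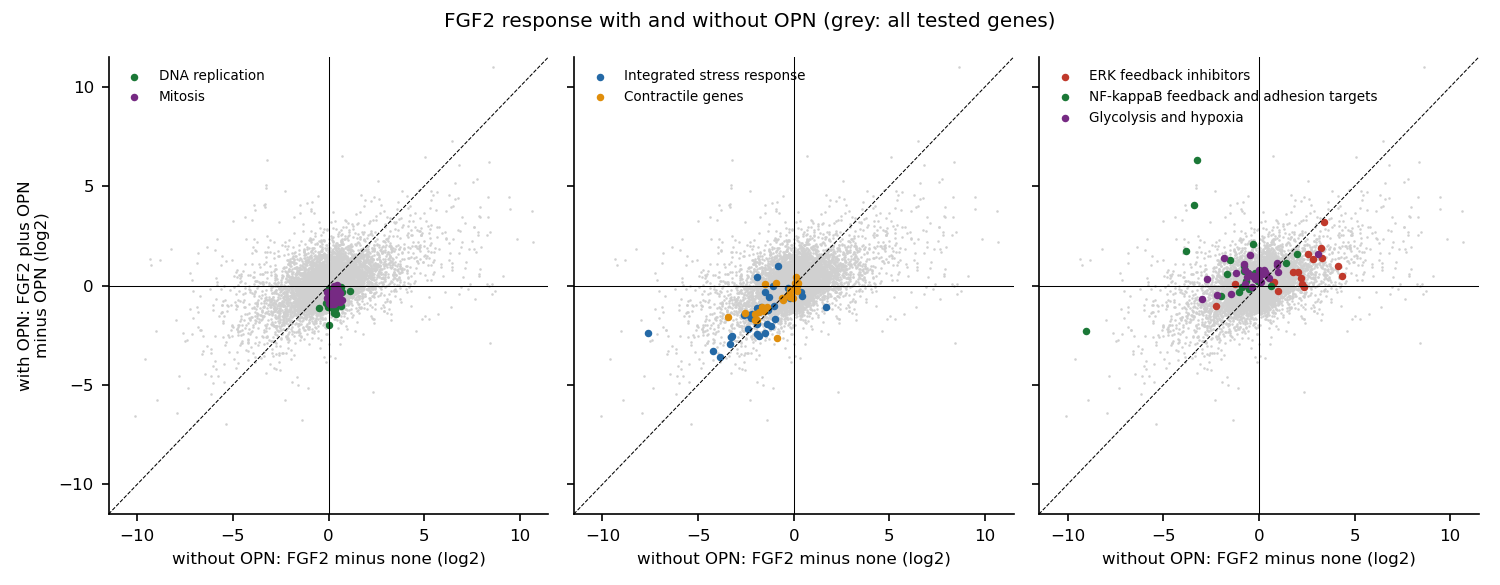
Log2 fold change of FGF2 without OPN (x axis) against FGF2 with OPN (y axis); grey points are all 15072 tested genes, coloured points the members of the lists in each panel, and the dashed line marks equal effects. Most members of the replication and mitosis lists lie below 0 on the y axis and to the right of 0 on the x axis, and most members of the stress response list lie below 0 on both.

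ERK feedback genes responded less when OPN was present. FGF2 alone raised 15 of the 17 and lowered 2, with a median log2 fold change of 2.25 against 0.48 with OPN, and the interaction was lower in 14 and higher in 2. Dusp6 held 237, 293 and 221 CPM with FGF2 alone and 50.9, 48.0 and 57.2 CPM with both factors (interaction -1.39 ± 0.21, adjusted p = 5.44e-05). Mmp10 reached 121, 204 and 119.9 CPM with FGF2 alone against 3.72, 2.86 and 2.91 CPM with both (interaction -6.85 ± 1.04, adjusted p = 4.47e-05), the most negative interaction value among named genes. Bmp2 behaved alike, with 248, 369 and 239 CPM and 22.1, 19.0 and 19.5 CPM (interaction -4.18 ± 0.37, adjusted p = 4.49e-07). Other genes with strongly lower effects in the presence of OPN were Nefm, Cnr1, Tslp, Serpinb2, Gpr149, Ptpn22 and Dach1, whose interaction values lay between -6.57 and -5.08. Of the matrix lists, proteoglycans and glycoproteins had a median log2 fold change of -2.51 without OPN and of -0.71 with it, and 22 of 35 had a higher interaction value against 4 lower.

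Of the 15072 tested genes, 783 rose with FGF2 in the presence of OPN and fell without it, and 774 did the reverse. All of them were also called for the interaction, but calls in opposed directions all but ensure this, so it is no added support. In the first set Hp, haptoglobin, an acute-phase protein, held 9.34, 11.2 and 10.1 CPM unstimulated and 0.833, 1.52 and 0.697 CPM with FGF2, but 1.66, 1.11 and 1.57 CPM with OPN and 21.2, 21.7 and 31.5 CPM with both (interaction 7.43 ± 0.31, adjusted p = 5.51e-14). Thus either factor alone left Hp below untreated cells, and both together left it above. C3 was likewise lower with either factor alone, at 34.0, 40.4 and 34.1 CPM unstimulated, 1.80, 3.73 and 1.27 CPM with FGF2 and 4.97, 3.58 and 7.76 CPM with OPN. With both it held 41.3, 46.3 and 70.9 CPM (interaction 7.31 ± 0.49, adjusted p = 3.49e-08). Its lowest joint library was close to its highest untreated one. The joint culture was not tested against untreated cells for Hp or C3. Kng1, a kininogen, held 0.800, 0.529 and 0.363 CPM with FGF2 alone and 44.2, 50.2 and 50.4 CPM with both (interaction 7.83 ± 0.34, adjusted p = 1.23e-12), although reads of Kng1 and its paralog Kng2 may be mixed. Chl1, Steap4, Rnf144a and Tnfsf11 also rose with OPN and fell without (3.96 and -3.34, 2.36 and -5.83, 1.95 and -3.93, 1.86 and -2.19). In the NF-kappaB list FGF2 without OPN raised 3 and lowered 14 of 23 genes, and 19 had a higher and 1 a lower interaction value.

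In the reverse set Inhba, the activin A subunit, held 136, 120.2 and 141 CPM unstimulated and 402, 415 and 414 CPM with FGF2, against 291, 333 and 243 CPM with OPN and 127, 123 and 140.3 CPM with both (interaction -2.79 ± 0.15, adjusted p = 5.92e-12). Each factor alone gave a higher Inhba level than untreated cells, and the joint culture lay near the untreated level. Tnfrsf12a, the receptor of the cytokine TWEAK, Fzd5, a Wnt receptor, Serpinb9b and Igsf9b fell with OPN (-0.95, -1.25, -2.31 and -1.11) and rose without it (1.52, 0.95, 1.41 and 1.45). Genes with like effects in both settings included Sparc, at -1.33 with OPN and -1.28 without, and Itih5, at 3.86 and 3.59, neither of them called for the interaction.

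**Figure D5:**
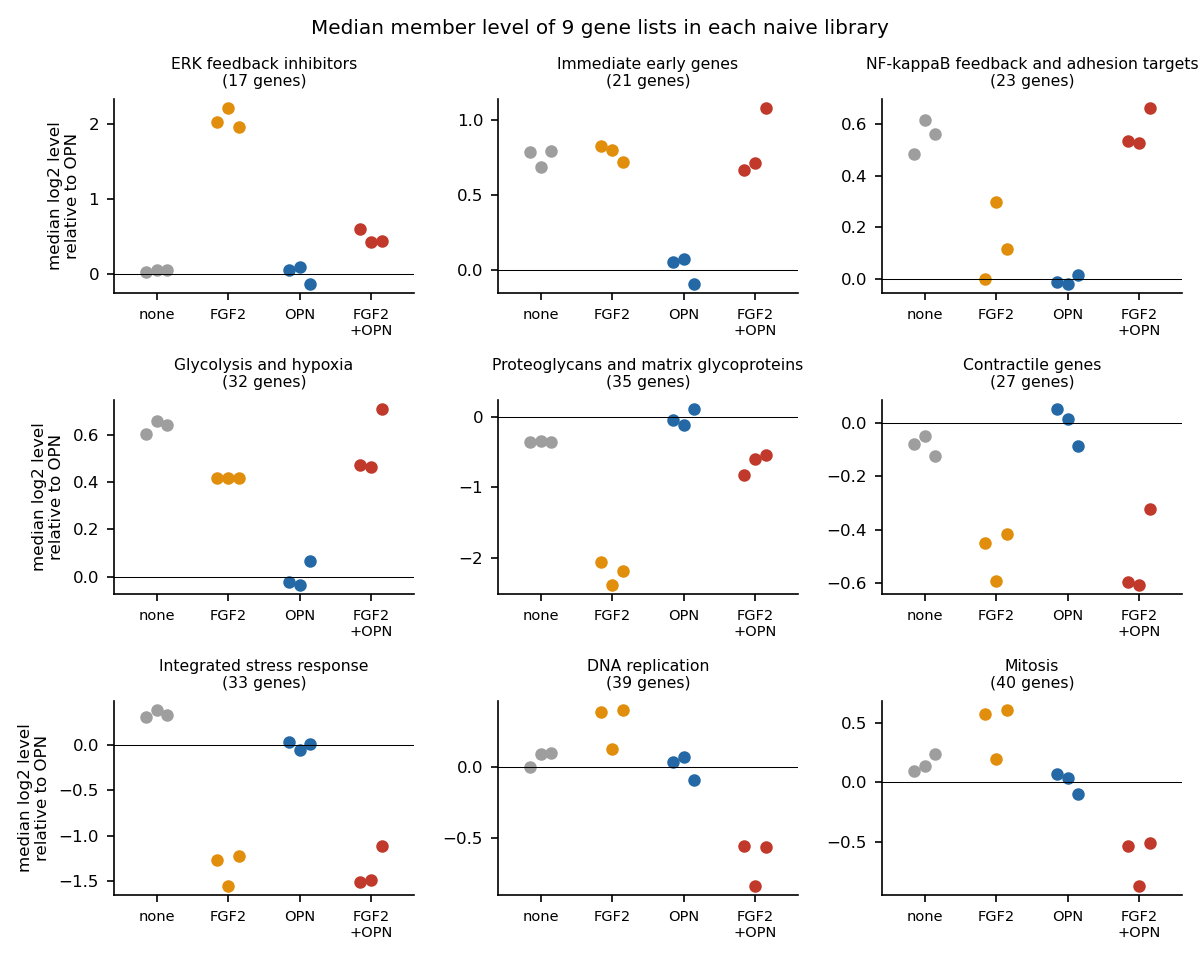
Median over the measured members of 9 gene lists of log2(CPM + 0.5) minus the mean of the 3 OPN libraries, for each of the 12 naive libraries (points), grouped as none (unstimulated), FGF2, OPN and FGF2 plus OPN. In each panel all 3 FGF2 plus OPN points lie on the same side of all 3 OPN points, and for the replication and mitosis lists they are the lowest of the 12.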

How the data were processed

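Messenger RNA of sorted synovial fibroblasts was sequenced in 18 libraries, 3 in each of 6 groups. Per the submitters' processing notes the authors used STAR and featureCounts on GRCm38 (mm10). The deposited values are unnormalized counts, 1 per gene and library, summed over exons. For versions, annotation release and strand setting nothing is given in the sources used here, so reads of a gene and of an overlapping antisense gene cannot be told apart. The other column of the table, the exon length, was not used. Of 32285 identifiers 127 had no symbol in GENCODE M21 and took 0.0294% of counts.

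Genes were filtered with filterByExpr (15072 kept), scaled by TMM factors and fitted in edgeR 4.0.16 (R 4.3.3) with 1 mean per group over all 18 libraries, by robust quasi-likelihood. The main contrast was FGF2 plus OPN minus OPN; the FGF2 effect without OPN and the difference of both effects (interaction) came from the same fit. Tests were two-sided quasi-likelihood F tests, with Benjamini-Hochberg adjustment over all 15072 genes and a threshold of 0.05. Values after ± are SE of a log2 fold change, and n is 3 libraries per group. Levels of single genes are in CPM after TMM scaling, and sums over markers in CPM of plain totals. The procedure was tested on simulated counts.

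The comparison, the 56 gene lists and the naming rule were chosen with earlier results of these data known. Named genes (501) were the 15 largest rises and 15 largest falls with a mean of at least 5 CPM and groups apart, the 4 largest called changes each way per list, all signalling list members of at least 1 CPM, the 10 most counted genes changed at least 2-fold, and 8 genes each way by interaction and by opposed direction; the text gives part of them, and a few items are not reported here. Alternatives were DESeq2 1.42.0, limma-voom, 3 other scalings, 2 other filters, other fits, a test against 1.5-fold, the replicate number as a block and leaving out each library. Deviations from group means of same-numbered libraries with OPN and with FGF2 plus OPN correlated at -0.067 to 0.00027, so numbers were not taken as pairs. No 2 replicates were identical. Upstream sequences are from the RefSeq promoter table (GRCm38.p6), matched by symbol for 75.6% of tested genes; with under 80% matched, motif shares over all tested genes are void, and they were taken over the whole promoter table.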

Additional observations from a re-analysis of the deposited data

Results flagged for a closer look

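The FGF2 effect differed between cells with and without OPN, tested as an interaction over the 12 naive libraries, in 7723 genes. Groups of 3 libraries are too small for a test of single outlying libraries. The genes named by the size of this difference or by opposed direction fall into 2 sets, given with its value on the log2 scale (effect with OPN minus effect without). They were drawn only from genes called for the interaction at an adjusted p below 0.05, so that call is no added support for them.

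The FGF2 effect was higher in the presence of OPN for Steap4 (8.19), Cxcl5 (7.85), Kng1 (7.83), Hp (7.43), C3 (7.31), Chl1 (7.30), Ptx3 (6.75), Ggt5 (6.68), Rnf144a (5.88), Kng2 (5.05) and Tnfsf11 (4.04). This set holds the acute-phase gene Hp, the complement gene C3, both kininogen genes, the metal reductase gene Steap4 and the RANKL gene Tnfsf11. A higher value does not by itself mean a rise with OPN. Ptx3 fell when FGF2 was added to OPN (-2.29), and Cxcl5 was not called for FGF2 on top of OPN.

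The FGF2 effect was lower in the presence of OPN for Mmp10 (-6.85), Nefm (-6.57), Cnr1 (-6.43), Tslp (-5.77), Serpinb2 (-5.69), Gpr149 (-5.66), Ptpn22 (-5.51), Dach1 (-5.08), Serpinb9b (-3.72), Phgdh (-2.79), Inhba (-2.79), Igsf9b (-2.57), Tnfrsf12a (-2.47) and Fzd5 (-2.20). This set holds the protease gene Mmp10, the cytokine gene Tslp, the growth factor gene Inhba, the neurofilament gene Nefm and the serine synthesis gene Phgdh. A lower value likewise does not by itself mean a fall with OPN. Gpr149 (3.83) and Dach1 (2.72) rose when FGF2 was added to OPN, but by less than without OPN, and Serpinb2 was not called.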

How the results depend on the processing

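Tested against a change of 1.5-fold in place of 0, 2067 genes were called for FGF2 on top of OPN (1130 higher, 937 lower) and 2721 for the interaction (1450 higher, 1271 lower). Other alternatives kept both counts within 1.5 times, and in no setting was a called gene called in the opposite direction. Leaving out 1 library gave 7681 to 8297 called genes for FGF2 on top of OPN and 7130 to 7902 for the interaction. With the replicate number as a block 8399 and 7587 genes were called, and 7174 and 6938 when that fit held only the compared libraries; 0 of 3 FGF2 plus OPN libraries correlated best with the OPN library of its own number, and same-numbered libraries share only a number. Of 501 named genes 307 had the same call in every setting and 445 in every fit without 1 library. With library totals the medians of the FGF list (0.082), of basement membrane genes (0.017) and of chaperones (0.00712) turned positive, as did Itgb5 (0.13, adjusted p = 0.0383). With the stricter filter the median of the FGF list was 0.12 and that of Wnt genes -0.023. Leaving out 1 library gave Wnt medians of -0.15 (without the second OPN library; -0.065 without the second FGF2 plus OPN library) to 0.089, and circadian medians of -0.050 (without the second OPN library) to 0.069. The cause of these turns was not tested. Within 150 bases before the start 21.4% of stress response promoters held TGATGNAA. With 3 libraries a group, genes near the detection floor are measured with few counts.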

Other observations

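In further gene groups some members rose and others fell when FGF2 was added to OPN, beside 27.1% higher and 29.5% lower over all tested genes. In the insulin-like growth factor axis 5 of 14 genes rose and 6 fell: next to the fall of Igfbp2, the binding protein gene Igfbp3 rose from 23.0, 19.8 and 23.0 CPM to 50.1, 63.0 and 74.6 CPM (log2 fold change 1.51 ± 0.18, adjusted p = 4.49e-06), and Pappa, a protease that cleaves such binding proteins, fell (-1.53). Of 19 circadian clock genes 5 rose and 6 fell (26.3% and 31.6%), close to the shares over all tested genes. Nfil3, a repressor of clock output, rose from 21.8, 19.3 and 23.9 CPM to 50.7, 58.5 and 61.8 CPM (log2 fold change 1.4 ± 0.08, adjusted p = 1.43e-12), and Ciart (-1.12), Bhlhe41 (-0.57) and Clock (-0.57) fell. Without OPN, FGF2 raised 0 and lowered 15 of these 19 genes. Chaperone genes gave 5 rises and 12 falls among 29, with 58.6% called beside 56.5% of all tested genes: the inducible Hspa1a (1.70) and Hspa1b (0.58), near-identical copies that may share reads, rose, and the mitochondrial Hspe1 (-0.91) and Hspd1 (-0.77) fell.

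In the adipogenic and lipid list 9 of 17 genes rose and 4 fell. Agt, angiotensinogen, rose from 0.326, 0.258 and 0.268 CPM to 3.57, 3.92 and 3.92 CPM (log2 fold change 3.72 ± 0.37, adjusted p = 1.73e-08), Apoe from 5.83, 4.38 and 10.4 CPM to 31.3, 29.4 and 25.7 CPM (log2 fold change 2.09 ± 0.21, adjusted p = 1.84e-07), and the adipocyte factor Pparg fell (-1.30). Together with Ace and Agtr2, 3 genes of the angiotensin system were higher, a grouping made after their values were seen. Axon guidance and neural type genes gave 11 rises, with Nptx1 (4.43), Chl1 (3.96), Sema6d (1.72) and Plxnd1 (1.38), and 15 falls, with Epha3 (-2.03), Epha4 (-1.42), Epha2 (-1.28) and Sema3d (-1.26), among 41; without the third OPN library Chl1 was at 4.64. Of 13 mitochondrially encoded genes 2 were called, both higher: mt-Atp6 (1.33) and mt-Co3 (1.27). The mitochondrial share of counts was 0.601% to 0.754% with OPN and 0.455% to 0.867% with FGF2 plus OPN.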
